A study of Schizosaccharomyces pombe with 10 samples.

Results

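The genes described here lie at the ends of chromosomes I and II of the fission yeast Schizosaccharomyces pombe, and are called end genes below. They were chosen by their IDs, which carry the name of the sequenced cosmid they were read from: SPAC212 and SPAC977 at the left end of chromosome I, SPAC186 and SPAC750 at its right end, SPBC1348 and SPBPB10D8 at the left end of chromosome II, and SPBPB2B2 and SPBCPT2R1 at its right end. The table of 6661 IDs holds 82 such protein-coding genes, with SPBC1348.14c left out, and the 55 with 20 or more counts summed over the 10 libraries are described. In the order of the reference annotation, SPAC212, SPAC750, SPBC1348 and SPBCPT2R1 are the outer cosmids and the other four lie further in.

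The study profiled total RNA of strain PT286 by RNA-seq, in cells that were untreated or had been exposed to 1 of 4 agents that damage DNA or stall its copying. All cells were grown in rich YES medium at 30 °C, with 16 h of culture before a change of medium. Treated cells were harvested 8 h after the addition of 20 µM camptothecin, which traps topoisomerase I on DNA, 10 mM hydroxyurea, which inhibits ribonucleotide reductase, 0.02% methyl methanesulfonate, which alkylates DNA, or 5 µg/mL phleomycin, which breaks DNA strands. Each of the 5 groups had 2 libraries, and the labels do not say whether untreated cells were kept for the same 8 h.

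In this yeast the chromosome ends are bound by the shelterin complex, built on Taz1 and Pot1, and the DNA next to it is packed into heterochromatin marked by the histone H3 lysine 9 methyltransferase Clr4 and read by Swi6. Genes placed there are mostly held at low levels, and many belong to families whose members were copied from one chromosome end to another. The families include RecQ-type helicases, small membrane proteins, transporters and enzymes of carbon metabolism.

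Library totals ran from 37301356 to 48598533 counts. The labels do not say that the libraries of one group were separate cultures, so the p-values reflect how far such libraries lie apart, and that spread may be technical. Levels are CPM, counts scaled to the library's size with TMM factors. Differences are log2 fold changes ± standard error from edgeR's quasi-likelihood test, fitted over 5734 features in all 10 libraries, with Benjamini-Hochberg adjusted p. A gene is said to have risen or fallen where the adjusted p was under 0.05.

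Near-identical copies limit what a single end gene can show. In the reference assembly, 52 of the 82 genes had a copy elsewhere that was at least 95% identical over 50% or more of their length, and 26 of the 55 were among them. SPAC212.08c is counted with them below, since 2 other genes matched it along their whole length. Counts of single genes with copies are uncertain, because reads of one copy can be given to another or to none. Of the 82 genes, 21 were at 0 in every library, a share of 25.6% against 2.56% of the 5112 protein-coding IDs in the table. All but 1 of these 21 had a copy. They included tlh1, a RecQ-type helicase gene at the outer left end of chromosome I, ftm3, ftm4 and ftm7 of a family of membrane proteins, and the phospholipase gene SPBC1348.10c. The exception was pdc102, a pyruvate decarboxylase gene that the reference annotation overlaps in full, on the opposite strand, with the non-coding RNA prl107. A further 6 genes, all with copies, had fewer than 20 counts. Closest to the minimum were SPBPB2B2.07c with 50 and SPAC977.05c with 67 counts inside it, and SPBPB2B2.19c with 18 and SPBPB10D8.05c with 14 outside it. Overlap is a further limit: in 9 of the 55, features on the opposite strand cover 75% or more of the gene. Such cover is 80.7% for SPBPB10D8.02c, 80.4% for SPAC212.06c, 65.4% for SPAC186.03, 60.1% for fex1 and 54.2% for SPAC212.08c. The strand setting of the counts is not given, so reads of the 2 strands cannot be told apart.

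All 55 genes passed the filter on low values, some of them only through a group in which they were high, so counts over them are a description. End genes were low: their median level over the 10 libraries was 7.66 CPM, against 81.1 CPM for all protein-coding genes tested, and whether their level bears on the counts below was not tested. Per kb of exon, the mean level ran from 0.158 CPM for SPBPB2B2.07c to 1776 CPM for the aldo-keto reductase gene SPAC977.14c, with a median of 8.00 CPM. SPAC977.14c alone held 58.0% of the summed level of the 55 genes.

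More end genes rose than fell under camptothecin, hydroxyurea and phleomycin, and similar numbers rose and fell under methyl methanesulfonate. With phleomycin, 35 of 55 rose and 11 fell, where 42.2% of all features rose and 40.7% fell. With hydroxyurea, 37 rose and 7 fell, against 40.3% and 38.8% of all features. Camptothecin gave 26 that rose and 12 that fell, against 35.2% and 35.9%. Methyl methanesulfonate gave 22 that rose and 21 that fell, against 39.5% and 40.9%, which is near the background. The median difference was 1.03 with phleomycin, 0.87 with hydroxyurea, 0.39 with camptothecin and 0.04 with methyl methanesulfonate on the log2 scale, where the median of all features lay between 0.002 and 0.023. With SPBPB2B2.07c, which had no untreated count, set to its lower bound or left out where it had no count at all, these medians were 1.03, 0.87, 0.40 and 0.04. Quantile normalization was run with the test of limma in place of edgeR's, so both scaling and test differ there. Under it the split became 27 that rose and 13 that fell with hydroxyurea and 33 against 17 with phleomycin. The median with methyl methanesulfonate turned to -0.18. Scaled to library totals, the share of all calls that were rises went from 50.9% to 67.7% with hydroxyurea, as the median of all features moved from 0.023 to 0.207, and the end genes then split 39 to 6.

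Rises of 2-fold or more, at an adjusted p under 0.05, were seen in 28 end genes with phleomycin (50.9%, against 16.5% of all features), 24 with hydroxyurea (43.6%, against 12.4%), 18 with methyl methanesulfonate (32.7%, against 13.5%) and 17 with camptothecin (30.9%, against 6.38%). Falls of that size were seen in 12 with methyl methanesulfonate (21.8%, against 4.05%), 3 with phleomycin (5.45%, against 5.51%), 2 with camptothecin (3.64%, against 1.46%) and 1 with hydroxyurea (1.82%, against 1.15%). Among the 28 genes without copies, 11 rose and 11 fell with camptothecin, 21 and 6 with hydroxyurea, 14 and 12 with methyl methanesulfonate, and 16 and 7 with phleomycin. Of the 27 with copies, 15 rose and 1 fell with camptothecin, 16 and 1 with hydroxyurea, 8 and 9 with methyl methanesulfonate, and 19 and 4 with phleomycin. The background for both sets is the shares of all features given above. With camptothecin the genes without copies, at 39.3% up and 39.3% down, were near it.

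**Figure D1:**
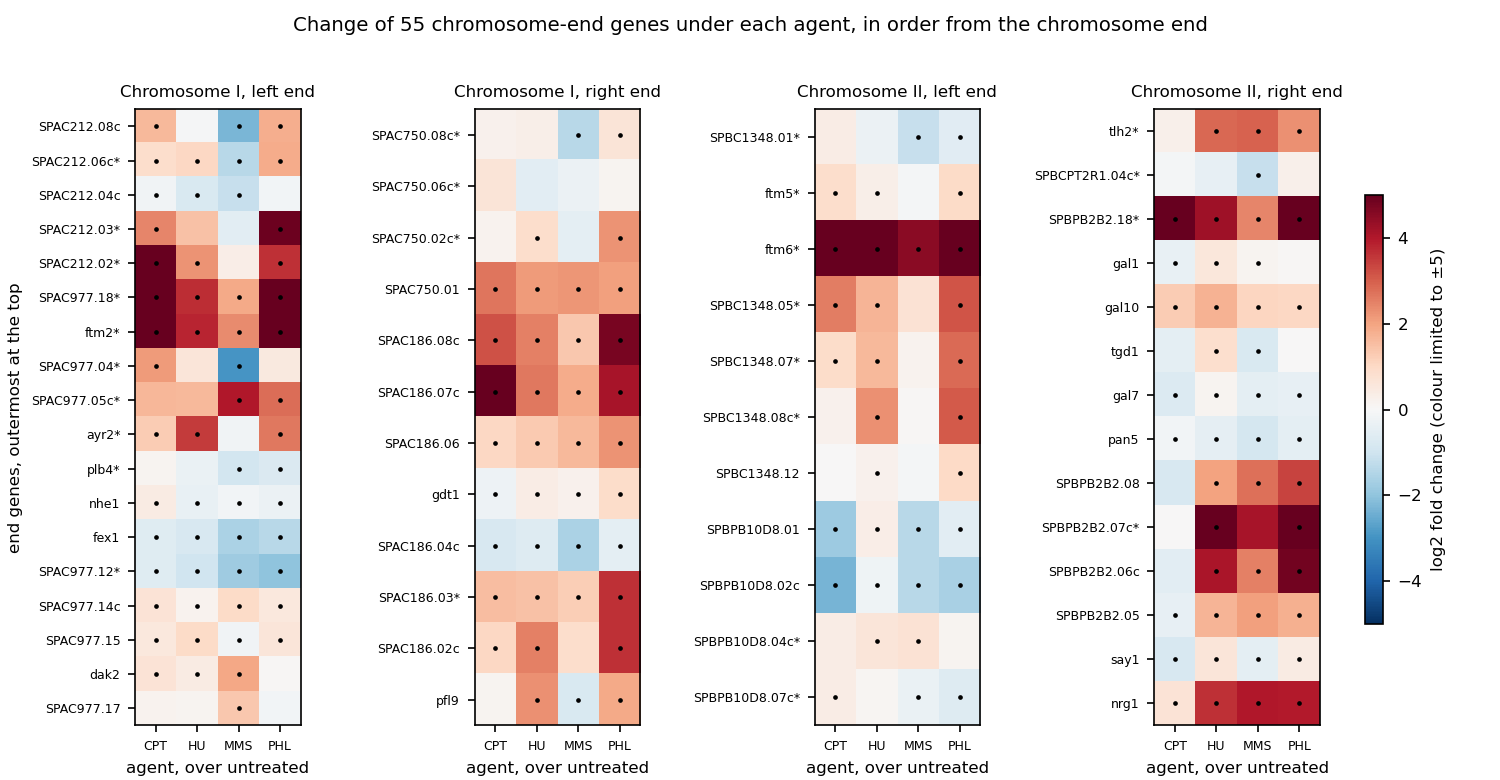
Log2 fold change of each of the 55 end genes over untreated cells (colour, limited to 5 in each direction), for camptothecin (CPT), hydroxyurea (HU), methyl methanesulfonate (MMS) and phleomycin (PHL), with genes in order from the chromosome end inward; a dot marks an adjusted p under 0.05, an asterisk a gene with a near-identical copy, and SPBPB2B2.07c had no count in untreated cells. The 12 genes that rose under all 4 agents are spread over the 4 ends, and nrg1, SPBPB2B2.05, SPBPB2B2.06c and SPBPB2B2.08 rose 2-fold or more with every agent but camptothecin.

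By gene, 12 of the 55 rose under all 4 agents, 5 fell under all 4 and 1, SPAC750.06c, was called under none. Over all features these shares were 16.4%, 19.0% and 3.51%. The 12 were SPAC186.03, SPAC186.06, SPAC186.07c, SPAC186.08c, SPAC750.01, ftm2, SPAC977.14c, SPAC977.18, ftm6, nrg1, gal10 and SPBPB2B2.18. The 5 were SPAC186.04c, fex1, SPAC977.12, SPBPB10D8.02c and pan5. The highest group mean was the phleomycin mean for 21 genes, the camptothecin mean for 11, hydroxyurea for 9, methyl methanesulfonate for 8 and untreated for 6. Untreated cells had the lowest mean for 22 genes and methyl methanesulfonate for 19. The highest and lowest groups were not counted over all features, so these numbers have no background. Rises of 2-fold or more over all features were also most frequent with phleomycin (16.5%).

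Small genes of unknown function and a membrane protein family were among those with the largest rises. Their rises were largest with camptothecin or phleomycin. SPBPB2B2.18, an uncharacterized gene of the right end of chromosome II, had 1.55 and 1.40 CPM in the untreated libraries, 390.4 and 378 in camptothecin, 27.1 and 29.2 in hydroxyurea, 8.65 and 7.46 in methyl methanesulfonate, and 94.5 and 94.9 in phleomycin. No 2 groups overlapped. Its differences from untreated were 8.03 ± 0.068 with camptothecin (adjusted p = 3.52e-69), 4.25 ± 0.096 with hydroxyurea (2.58e-45), 2.45 ± 0.13 with methyl methanesulfonate (1.90e-26) and 6.01 ± 0.078 with phleomycin (6.41e-59). Camptothecin stood 5.58 ± 0.052 above methyl methanesulfonate (adjusted p = 8.33e-67), the largest difference between these agents among end genes that met the conditions for naming.

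SPAC977.18, its near-identical copy on chromosome I, had 0.440 and 1.51 CPM untreated, 114 and 111 in camptothecin, 12.7 and 13.5 in hydroxyurea, 3.85 and 3.61 in methyl methanesulfonate and 48.9 and 49.9 in phleomycin. The order of the groups was the same for both copies, and the 2 untreated libraries of SPAC977.18 lay further apart in ratio than those of any other group. Its rises were 6.80, 3.70, 1.89 and 5.62 in the same order of agents. Summed, the pair rose by 7.65 ± 0.060, 4.06 ± 0.082, 2.25 ± 0.11 and 5.86 ± 0.067, so the sum does not depend on how reads were divided between the copies.

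The ftm genes code for small proteins with membrane-spanning helices, and 4 of them, ftm2, ftm3, ftm6 and ftm7, are near-identical. Only ftm2 and ftm6 were given reads. ftm2 had 0.259 and 0.233 CPM untreated, 12.6 and 13.2 in camptothecin, 3.34 and 3.59 in hydroxyurea, 1.24 and 1.32 in methyl methanesulfonate and 14.1 and 12.8 in phleomycin. All treated libraries lay above both untreated ones, while camptothecin and phleomycin overlapped each other. ftm6 was counted 4 times in all in untreated cells and 1487 times with phleomycin. With library sizes scaled by TMM factors, this is a ratio of 358 with a 95% exact interval from 139.6 to 1316. The same ratio was 223 (86.7 to 819) with camptothecin, 52.6 (20.2 to 195) with hydroxyurea and 24.0 (9.08 to 90.1) with methyl methanesulfonate, intervals that cover counting error only. The 4 genes summed rose by 6.32 ± 0.19 with camptothecin, 4.35 ± 0.23 with hydroxyurea, 3.05 ± 0.27 with methyl methanesulfonate and 6.70 ± 0.18 with phleomycin. ftm5 belongs to a second group of copies and was the most abundant gene of SPBC1348. It had 39.7 and 46.1 CPM untreated, 78.6 and 79.6 in camptothecin, 53.1 and 51.8 in hydroxyurea, 39.6 and 39.8 in methyl methanesulfonate and 83.3 and 84.9 in phleomycin. It rose by 0.88 ± 0.052, 0.29 ± 0.053 and 0.97 ± 0.051 with camptothecin, hydroxyurea and phleomycin, and its difference with methyl methanesulfonate was -0.11 (adjusted p = 0.0553).

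**Figure D2:**
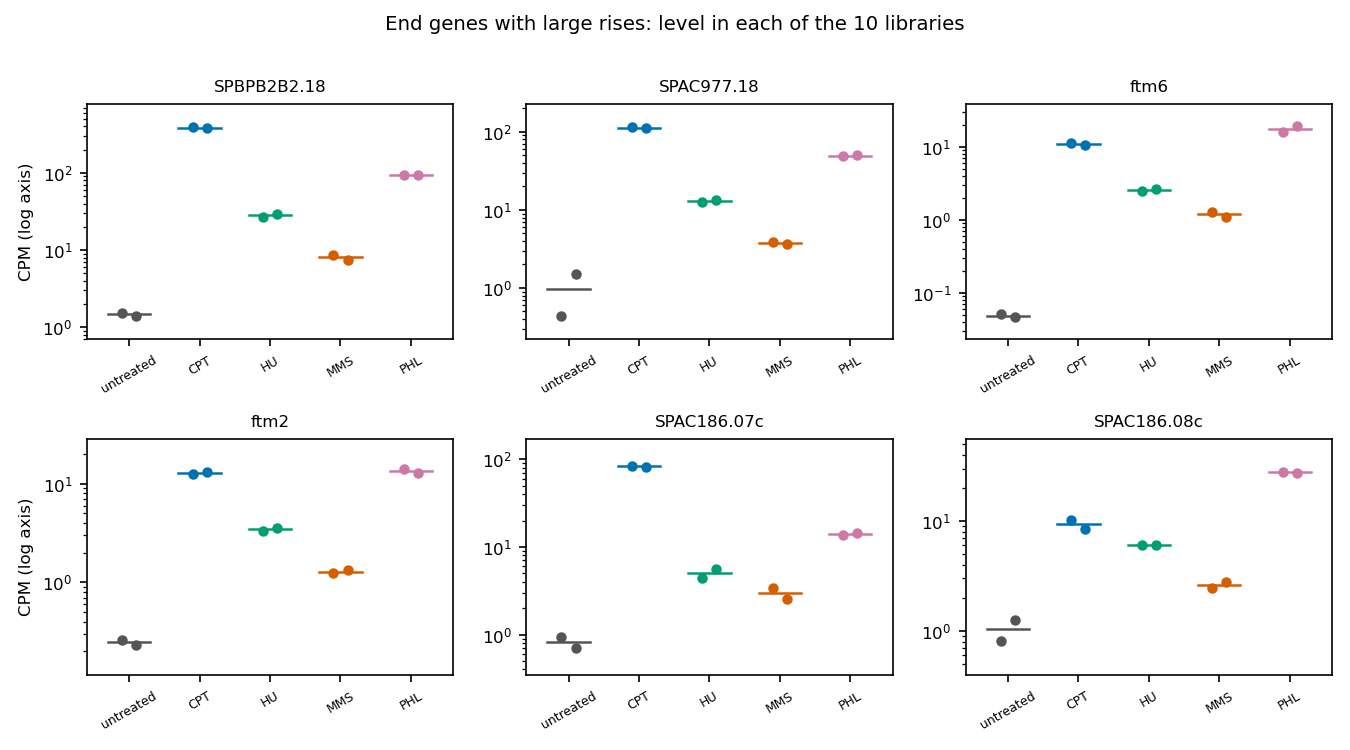
Level of 6 end genes in each of the 10 libraries, in CPM on a log axis with its own range for each gene; points are libraries and lines are means of the 2 libraries of a group (CPT camptothecin, HU hydroxyurea, MMS methyl methanesulfonate, PHL phleomycin). SPBPB2B2.18, SPAC977.18 and SPAC186.07c are highest with camptothecin, SPAC186.08c and ftm6 with phleomycin, and methyl methanesulfonate gives the smallest rise in all 6.

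Among genes with no near-identical copy, SPAC186.07c and SPAC186.08c at the right end of chromosome I rose with every agent. SPAC186.07c, annotated as a hydroxyacid dehydrogenase, had 0.932 and 0.699 CPM untreated, 84.6 and 82.0 in camptothecin, 4.39 and 5.59 in hydroxyurea, 3.40 and 2.54 in methyl methanesulfonate, and 13.7 and 14.3 in phleomycin. No 2 groups overlapped. The rises were 6.68 ± 0.13 (adjusted p = 2.14e-48), 2.62 ± 0.19 (1.08e-19), 1.86 ± 0.21 (5.16e-12) and 4.11 ± 0.16 (2.65e-33) in that order. Between agents, camptothecin stood 4.06 ± 0.098 above hydroxyurea (adjusted p = 1.41e-43) and 2.57 ± 0.085 above phleomycin (adjusted p = 2.24e-36). In the reference annotation the non-coding RNA prl61 (SPNCRNA.61) covers 40.9% of SPAC186.07c on the opposite strand. prl61 was counted at 0 and 0.0466 CPM untreated, 9.54 and 8.85 in camptothecin, 0.421 and 0.466 in hydroxyurea, 0.554 and 0.191 in methyl methanesulfonate, and 1.10 and 1.19 in phleomycin. Both features were highest with camptothecin and next highest with phleomycin. The strand setting of the counts is not given in the sources used here, so reads of this gene and prl61 cannot be told apart.

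Next to it, SPAC186.08c, annotated as an L-lactate dehydrogenase, which interconverts lactate and pyruvate, was highest with phleomycin, at 27.7 and 27.6 CPM against 0.802 and 1.26 untreated. It rose by 3.18, 2.53, 1.34 and 4.73 with camptothecin, hydroxyurea, methyl methanesulfonate and phleomycin. SPAC750.01, an aldo/keto reductase gene and the most abundant of SPAC750, went from 51.4 and 49.0 CPM untreated to 323 and 320.1 in camptothecin, 215 and 221 in hydroxyurea, 237 and 232 in methyl methanesulfonate and 205 and 207 in phleomycin. Its rises ran from 2.04 ± 0.032 with phleomycin to 2.68 ± 0.031 with camptothecin, and camptothecin stood above phleomycin by 0.64 ± 0.026 (adjusted p = 1.72e-31) and above hydroxyurea by 0.56 ± 0.026 (adjusted p = 2.45e-28). gdt1, whose budding yeast counterpart is a Golgi cation transporter, was the most abundant of SPAC186. It had 107 and 114 CPM untreated, 96.7 and 89.0 in camptothecin, 148 and 142 in hydroxyurea, 129 and 129 in methyl methanesulfonate and 209.7 and 207 in phleomycin. It fell by 0.25 with camptothecin and rose by 0.39, 0.22 and 0.91 with the others. SPAC186.04c, an uncharacterized gene beside gdt1, had 47.4 and 44.7 CPM untreated, 24.3 and 29.3 in camptothecin, 29.8 and 29.9 in hydroxyurea, 15.0 and 15.4 in methyl methanesulfonate and 33.1 and 32.4 in phleomycin. All its treated libraries lay below the untreated ones, and it fell by 0.79, 0.63, 1.60 and 0.49 in the same order. Over SPAC186, 7 of 8 genes rose with hydroxyurea, 7 with phleomycin, and 5 each with camptothecin and methyl methanesulfonate, against 40.3%, 42.2%, 35.2% and 39.5% of all features.

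At the inner edge of SPBPB2B2, on chromosome II, 4 of the 6 genes tested from SPBPB2B2.08 inward rose 2-fold or more with each of hydroxyurea, methyl methanesulfonate and phleomycin, and of these 4 nrg1 rose with camptothecin and SPBPB2B2.05 fell. The other 2 were say1, which fell with methyl methanesulfonate, and SPBPB2B2.07c, which was not called with it (adjusted p = 0.153). Over all features, 12.4%, 13.5% and 16.5% rose 2-fold or more with hydroxyurea, methyl methanesulfonate and phleomycin. The share that did so with all 3 was not computed, and this stretch was chosen after its values were seen. The innermost gene, nrg1, annotated as an amino-acid permease, which carries amino acids into the cell, had 5.41 and 5.01 CPM untreated, 8.85 and 7.79 in camptothecin, 66.1 and 65.4 in hydroxyurea, 85.2 and 81.8 in methyl methanesulfonate and 82.3 and 80.3 in phleomycin. The last 2 agents overlapped and the other groups did not. Its rise was 0.69 ± 0.098 with camptothecin (adjusted p = 7.11e-09), 3.66 ± 0.073 with hydroxyurea (2.73e-48) and 3.97 ± 0.071 with phleomycin (4.29e-51). With methyl methanesulfonate it also rose (adjusted p = 2.64e-51), to a level that differed from that with phleomycin by 0.04 ± 0.050 (adjusted p = 0.501). The difference of camptothecin from hydroxyurea was -2.97 ± 0.067 (adjusted p = 2.77e-45).

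SPBPB2B2.06c, annotated as a phosphoprotein phosphatase, had 0.518 and 0.606 CPM untreated, 0.520 and 0.223 in camptothecin, 9.91 and 9.36 in hydroxyurea, 2.80 and 3.68 in methyl methanesulfonate and 16.1 and 15.9 in phleomycin. Camptothecin and untreated libraries overlapped, and the other groups stood apart. It rose by 4.09 ± 0.23, 2.52 ± 0.26 and 4.82 ± 0.22 with the last 3 agents, and its difference with camptothecin was -0.53 (adjusted p = 0.224). Phleomycin exceeded camptothecin 40.9-fold and hydroxyurea exceeded it 24.6-fold. SPBPB2B2.08, an uncharacterized gene, had 0.543 and 0.769 CPM untreated, 0.347 and 0.418 in camptothecin, 2.55 and 2.77 in hydroxyurea, 4.33 and 4.52 in methyl methanesulfonate, and 6.50 and 7.30 in phleomycin. It rose 4.01-fold, 6.67-fold and 10.4-fold with the last 3 agents, while camptothecin gave -0.80 on the log2 scale (adjusted p = 0.0709). The difference of camptothecin from methyl methanesulfonate was -3.54 ± 0.30 (adjusted p = 1.61e-16). SPBPB2B2.05, a glutamine amidotransferase-like gene beside them, rose by 1.71, 2.07 and 1.78 on the log2 scale with these agents and fell by 0.40 with camptothecin. SPBPB2B2.07c had no count in untreated or camptothecin libraries, and with phleomycin it was at least 10.9-fold higher than a floor of 3 counts over the untreated group.

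In the reference annotation, long non-coding RNAs on the opposite strand cover nrg1 and SPBPB2B2.08 in full, 70.6% of say1 and 50.7% of SPBPB2B2.05. None covers SPBPB2B2.06c. As the strand setting of the counts is not given, reads of the covered genes and of those RNAs cannot be told apart. Between nrg1 and SPBPB2B2.05 lies say1, which removes acetyl groups from sterols. It had 33.9 and 37.6 CPM untreated, 20.2 and 20.8 in camptothecin, 58.1 and 49.5 in hydroxyurea, 25.3 and 25.6 in methyl methanesulfonate, and 47.7 and 47.9 in phleomycin. No 2 of its groups overlapped. It fell by 0.80 ± 0.070 with camptothecin and by 0.49 ± 0.069 with methyl methanesulfonate, and rose by 0.59 ± 0.064 and 0.42 ± 0.064 with hydroxyurea and phleomycin, so with methyl methanesulfonate it fell where nrg1 and SPBPB2B2.05 on either side rose.

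Further out on the same cosmid lie the genes of the Leloir pathway, which turns galactose into a glucose phosphate: galactokinase gal1, uridylyltransferase gal7 and epimerase gal10. gal10 had 10.7 and 10.1 CPM untreated, 24.1 and 25.4 in camptothecin, 36.1 and 33.5 in hydroxyurea, 20.2 and 23.2 in methyl methanesulfonate and 23.3 and 19.2 in phleomycin. All treated libraries lay above both untreated ones. It rose by 1.25 ± 0.093, 1.74 ± 0.090, 1.07 ± 0.094 and 1.03 ± 0.094. The nucleotide-sugar dehydratase gene tgd1 overlaps 93.7% of gal10 on the opposite strand, so their reads cannot be told apart. tgd1 was given 652 counts in all against 9374 for gal10, and its differences were -0.49 with camptothecin (adjusted p = 0.171), 0.83 with hydroxyurea (0.00653), -0.75 with methyl methanesulfonate (0.0342) and 0.00 with phleomycin (0.990). Of its 2 calls, that with hydroxyurea was lost without hydroxyurea replicate 2 (0.61, adjusted p = 0.124) and turned to -0.15 under quantile normalization. The other was lost with library totals (adjusted p = 0.0610) and without untreated replicate 1 (0.0869), untreated replicate 2 (0.0782) or methyl methanesulfonate replicate 1 (-0.42, adjusted p = 0.331). gal1 had 50.2 and 45.3 CPM untreated, 37.4 and 35.5 in camptothecin, 71.2 and 71.5 in hydroxyurea, 51.3 and 52.3 in methyl methanesulfonate, and 47.1 and 50.8 in phleomycin. It fell by 0.39 ± 0.056 with camptothecin and rose by 0.58 ± 0.053 with hydroxyurea. With methyl methanesulfonate its difference was 0.12 (adjusted p = 0.0411), a call lost without untreated replicate 2, where it was 0.05 (adjusted p = 0.529), and without either methyl methanesulfonate replicate. With phleomycin its difference was 0.04 (adjusted p = 0.514). gal7 had 58.5 and 56.9 CPM untreated, 37.0 and 34.4 in camptothecin, 61.6 and 64.1 in hydroxyurea, 40.2 and 42.2 in methyl methanesulfonate and 44.0 and 42.4 in phleomycin. It fell by 0.69, 0.48 and 0.42 with camptothecin, methyl methanesulfonate and phleomycin, each past the threshold. Its 0.12 with hydroxyurea (adjusted p = 0.0265) was lost without untreated replicate 2 (adjusted p = 0.143) and without hydroxyurea replicate 2 (adjusted p = 0.184). Next to gal7, pan5, a ketopantoate reductase gene of pantothenate synthesis, was the most abundant gene of SPBPB2B2 by CPM. It had 182 and 179 CPM untreated, 168 and 161 in camptothecin, 130.2 and 133 in hydroxyurea, 99.0 and 96.8 in methyl methanesulfonate and 129.5 and 125 in phleomycin. All its treated libraries lay below the untreated ones, and it fell by 0.13, 0.46, 0.88 and 0.50.

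**Figure D3:**
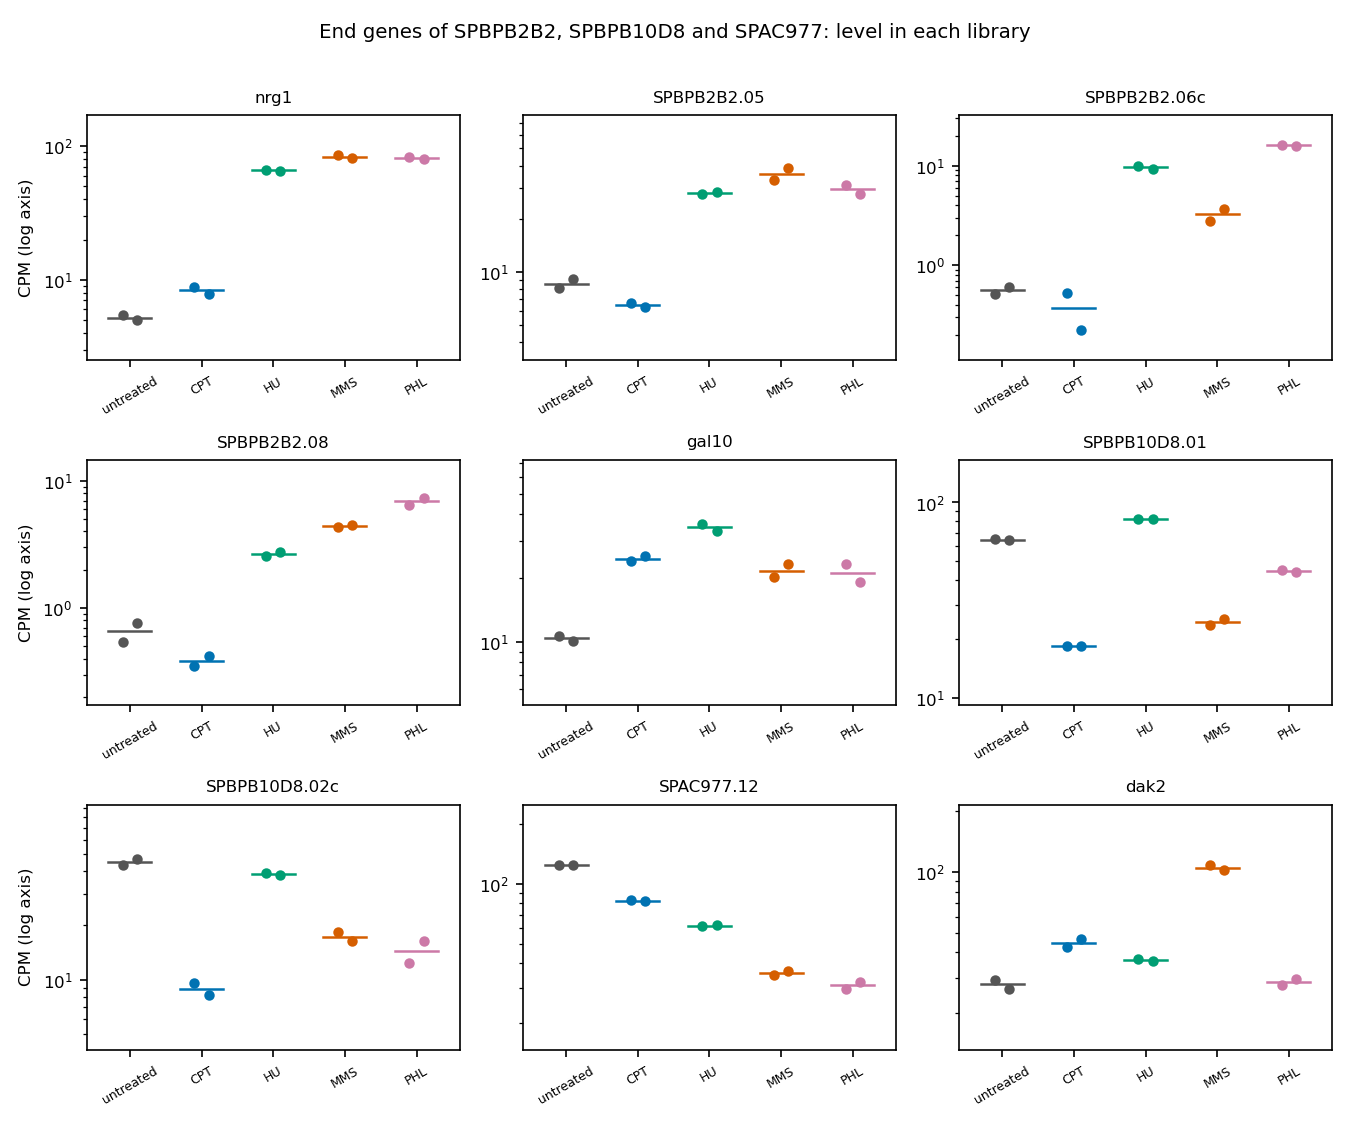
Level of 9 end genes in each of the 10 libraries, in CPM on a log axis with its own range for each gene; points are libraries and lines are means of the 2 libraries of a group (CPT camptothecin, HU hydroxyurea, MMS methyl methanesulfonate, PHL phleomycin). nrg1, SPBPB2B2.05, SPBPB2B2.06c and SPBPB2B2.08 are high with 3 agents and within 2-fold of the untreated level with camptothecin, SPBPB10D8.01 and SPBPB10D8.02c are lowest with camptothecin, and dak2 stands out with methyl methanesulfonate.

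A pair of neighbouring genes at the outer edge of SPBPB10D8, at the left end of chromosome II, had their lowest levels with camptothecin. SPBPB10D8.01, annotated as a cysteine transporter, had 65.1 and 64.1 CPM untreated, 18.5 and 18.4 in camptothecin, 82.1 and 82.5 in hydroxyurea, 23.7 and 25.4 in methyl methanesulfonate, and 45.0 and 44.1 in phleomycin. No 2 groups overlapped. It fell by 1.81 ± 0.059 (adjusted p = 9.80e-37), 1.39 ± 0.056 (6.91e-32) and 0.54 ± 0.052 (2.73e-14) with camptothecin, methyl methanesulfonate and phleomycin, and rose by 0.35 ± 0.050 with hydroxyurea. The neighbouring SPBPB10D8.02c, annotated as an arylsulfatase, which frees sulfate from sulfate esters, had 43.4 and 46.9 CPM untreated, 9.54 and 8.16 in camptothecin, 38.9 and 38.3 in hydroxyurea, 18.3 and 16.3 in methyl methanesulfonate, and 12.4 and 16.4 in phleomycin. It fell by 2.34 ± 0.092, 1.39 ± 0.084 and 1.64 ± 0.086 with camptothecin, methyl methanesulfonate and phleomycin. Its difference of -0.23 ± 0.078 with hydroxyurea (adjusted p = 0.00668) was lost with library-total scaling, at -0.04 and without untreated replicate 2 (-0.17, adjusted p = 0.120). Hydroxyurea stood 1.41 ± 0.086 above phleomycin. The transporter gene SPBPB10D8.07c had 22.3 and 23.7 CPM untreated, 28.1 and 31.0 in camptothecin, 26.8 and 22.3 in hydroxyurea, 18.0 and 18.6 in methyl methanesulfonate, and 15.2 and 14.2 in phleomycin. Hydroxyurea overlapped untreated. The gene rose by 0.36 ± 0.083 with camptothecin and fell by 0.33 ± 0.086 and 0.65 ± 0.088 with methyl methanesulfonate and phleomycin. It has near-identical neighbours, and the 4 transporter genes of this family summed rose by 0.36 with camptothecin and fell by 0.57 with phleomycin.

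At the left end of chromosome I the SPAC977 genes took separate courses. SPAC977.12 codes for an L-asparaginase, which hydrolyses asparagine. It had 124 and 125 CPM untreated, 83.0 and 82.0 in camptothecin, 61.6 and 62.0 in hydroxyurea, 34.8 and 36.7 in methyl methanesulfonate, and 29.6 and 32.4 in phleomycin. No 2 groups overlapped. It fell by 0.59 ± 0.044, 1.01 ± 0.045 and 1.79 ± 0.048 with the first 3 agents, and with phleomycin from a mean of 124 to one of 31.0 CPM (adjusted p = 4.73e-44). SPAC186.03, another L-asparaginase gene at the other end of the chromosome, was counted at 0.233 and 0.303 CPM untreated and 3.11 and 3.66 in phleomycin, a rise of 3.64 ± 0.39, and rose by 1.55, 1.46 and 1.22 with the other agents. Both genes have near-identical sequence elsewhere in the reference, over 100% and 98.7% of their length, so the counts of each alone are uncertain.

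fex1, which codes for a fluoride export channel, had 4.53 and 3.57 CPM untreated, 2.65 and 2.62 in camptothecin, 2.20 and 2.40 in hydroxyurea, 1.21 and 1.46 in methyl methanesulfonate and 1.94 and 1.19 in phleomycin. It fell by 1.59 ± 0.26 with methyl methanesulfonate and by 1.37 ± 0.26 with phleomycin. Its falls of 0.62 with camptothecin (adjusted p = 0.0195) and 0.81 with hydroxyurea (adjusted p = 0.00215) were lost without untreated replicate 1, at adjusted p of 0.192 and 0.0507, and the first also without either camptothecin replicate (0.0709 and 0.0674). plb4, a phospholipase gene, had 7.69 and 7.64 CPM untreated, 8.93 and 7.77 in camptothecin, 5.98 and 6.24 in hydroxyurea, 4.48 and 3.61 in methyl methanesulfonate and 4.18 and 5.17 in phleomycin. It fell by 0.92 ± 0.17 and 0.71 ± 0.16 with the last 2 agents, which overlapped each other. ayr2, a dehydrogenase gene, had 0.104 and 0.256 CPM untreated, 0.455 and 0.445 in camptothecin, 2.01 and 2.19 in hydroxyurea, 0.185 and 0.143 in methyl methanesulfonate and 1.35 and 0.989 in phleomycin. It rose by 3.49 ± 0.46 with hydroxyurea and 2.64 ± 0.50 with phleomycin, and hydroxyurea stood 3.66 ± 0.47 above methyl methanesulfonate (adjusted p = 4.45e-10). Its 1.28 with camptothecin (adjusted p = 0.0480) was lost without untreated replicate 1 (0.81, adjusted p = 0.285) and without either camptothecin replicate.

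dak2 codes for dihydroxyacetone kinase, an enzyme of glycerol breakdown. It had 29.3 and 26.4 CPM untreated, 42.5 and 46.4 in camptothecin, 37.2 and 36.4 in hydroxyurea, 108 and 102 in methyl methanesulfonate and 27.6 and 29.4 in phleomycin. Phleomycin and untreated libraries overlapped, and methyl methanesulfonate stood highest. It rose by 0.67 ± 0.060, 0.40 ± 0.061 and 1.92 ± 0.057 with camptothecin, hydroxyurea and methyl methanesulfonate, and methyl methanesulfonate exceeded phleomycin by 1.88 ± 0.056. The difference of hydroxyurea from methyl methanesulfonate was -1.51 ± 0.055. The adjacent SPAC977.17, annotated as a member of the MIP superfamily of membrane channels, rose by 1.35 ± 0.079 with methyl methanesulfonate, from 16.5 and 16.5 to 40.5 and 43.5 CPM, and stood 1.47 ± 0.080 higher there than with phleomycin (adjusted p = 3.07e-25). It overlaps 21.4% of dak2 on the opposite strand. SPAC977.14c, the aldo-keto reductase gene that leads the summed level, had 1542 and 1520.2 CPM untreated, 2479 and 2508 in camptothecin, 1738 and 1746 in hydroxyurea, 2945 and 2952 in methyl methanesulfonate, and 2183 and 2212 in phleomycin. It rose by 0.70, 0.19, 0.95 and 0.52, each ± 0.016. Without it, the summed level of the other 54 genes was 1204 and 1215 CPM untreated, 2054 and 2020.0 in camptothecin, 1590.4 and 1585 in hydroxyurea, 1319.8 and 1322 in methyl methanesulfonate, and 1741 and 1755 in phleomycin. No 2 groups overlapped in that sum.

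The outermost cosmids hold the helicase genes and a few genes of unknown function. tlh2, the RecQ-type helicase gene nearest the right end of chromosome II, had 0.362 and 0.746 CPM untreated, 0.455 and 0.919 in camptothecin, 3.97 and 4.38 in hydroxyurea, 4.56 and 4.09 in methyl methanesulfonate and 2.27 and 3.26 in phleomycin. Camptothecin overlapped untreated, and the other agents lay above both. It rose by 2.89 ± 0.31 (adjusted p = 1.09e-12), 2.94 ± 0.31 (5.44e-13) and 2.30 ± 0.32 (3.51e-09) with the last 3 agents, and its difference with camptothecin was 0.24 (adjusted p = 0.610). The helicase-like gene SPAC212.06c, on the first chromosome, had a mean of 2.37 ± 0.171 CPM untreated (SD, n = 2), 4.32 ± 0.723 with camptothecin, 4.85 ± 0.581 with hydroxyurea, 0.923 ± 0.224 with methyl methanesulfonate and 8.72 ± 0.317 with phleomycin. It fell by 1.37 ± 0.26 with methyl methanesulfonate, the agent with the largest rise of tlh2. Summed with tlh1, which had no counts, the family rose with all agents, by 0.78 ± 0.17 with camptothecin (adjusted p = 7.43e-05), 1.62 ± 0.16, 0.84 ± 0.17 and 1.97 ± 0.16.

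Of the 5 SPAC212 genes, 4 rose with phleomycin and with camptothecin (42.2% and 35.2% of all features), 2 with hydroxyurea (40.3%) and 0 with methyl methanesulfonate (39.5%), where 3 fell (40.9%). Besides SPAC212.08c, 3 of the 5 had a near-identical copy, so these counts cannot be credited to SPAC212 alone. With methyl methanesulfonate 0 rose also at an unadjusted p under 0.05 in edgeR and in DESeq2. SPAC212.08c, a GPI-anchored cell surface protein gene, had 82 and 152 counts in the untreated libraries, a mean of 2.83 CPM, with 8.98 and 8.63 CPM in camptothecin, 2.80 and 2.70 in hydroxyurea, 0.528 and 0.622 in methyl methanesulfonate, and 8.77 and 11.2 in phleomycin. Hydroxyurea lay within the untreated range. It rose by 1.63 ± 0.19 and 1.81 ± 0.19 with camptothecin and phleomycin and fell by 2.30 ± 0.28 with methyl methanesulfonate. SPAC212.03, an uncharacterized gene, was counted 6 times in untreated cells and 195 times with phleomycin, a TMM-scaled ratio of 31.3 with an exact 95% interval from 14.1 to 86.4. Its difference of methyl methanesulfonate from phleomycin was -5.44 ± 0.62 and that of hydroxyurea from phleomycin -3.44 ± 0.47. Its rise of 2.44 with camptothecin (adjusted p = 0.00383) was lost without untreated replicate 2 (1.65, adjusted p = 0.0837). SPAC212.04c, the most abundant gene of the cosmid, had 36.6 and 36.4 CPM untreated, 32.1 and 32.2 in camptothecin, 21.2 and 21.8 in hydroxyurea, 16.6 and 16.1 in methyl methanesulfonate, and 31.4 and 35.6 in phleomycin. It fell by 0.76 ± 0.072 with hydroxyurea and 1.16 ± 0.075 with methyl methanesulfonate. Its -0.18 with camptothecin (adjusted p = 0.0162) was lost without untreated replicate 1 (0.0585), untreated replicate 2 (0.0519) or camptothecin replicate 1 (0.0637), and its -0.12 with phleomycin gave an adjusted p of 0.0993.

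**Figure D4:**
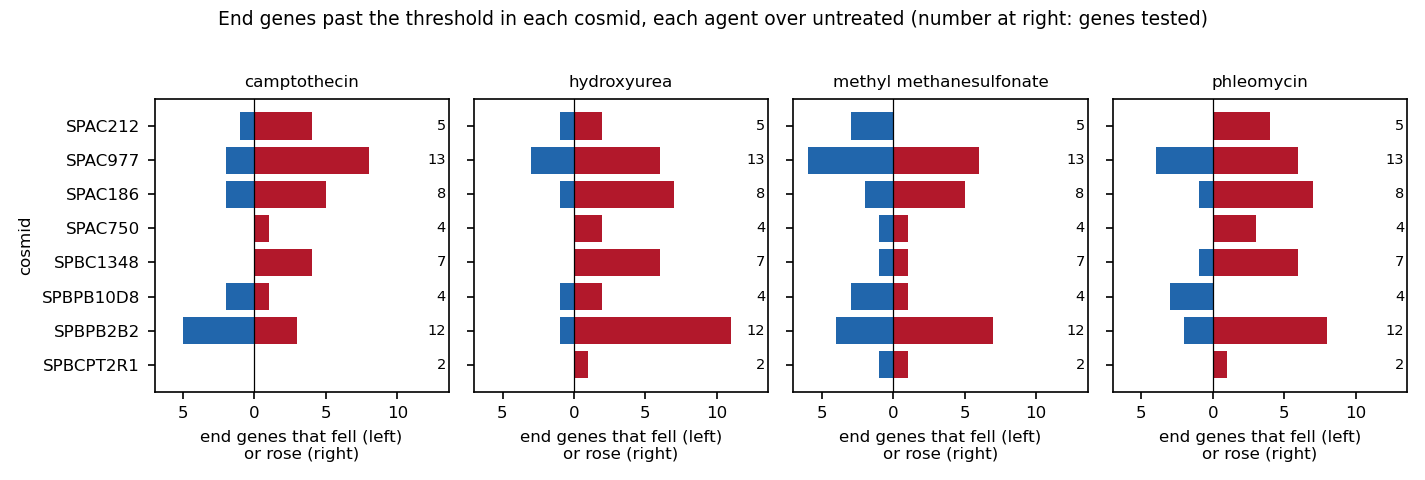
Number of end genes past the threshold in each cosmid, with genes that rose drawn to the right and genes that fell to the left of 0, for each agent over untreated cells; the number at the right edge is how many genes were tested. SPBPB2B2 has 11 of 12 genes up with hydroxyurea and 3 of 12 with camptothecin, and SPAC212 has none up with methyl methanesulfonate. Near-identical copies, found for 6 of 7 genes at SPBC1348 and 3 of 5 at SPAC212, make the counts of these cosmids uncertain.

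Counts by cosmid stand beside the shares of all features that rose, 35.2% with camptothecin, 40.3% with hydroxyurea, 39.5% with methyl methanesulfonate and 42.2% with phleomycin. With 4 to 12 genes in each cosmid named here they are a description. At SPBPB2B2, 11 of 12 genes rose with hydroxyurea, 8 with phleomycin, 7 with methyl methanesulfonate and 3 with camptothecin (91.7%, 66.7%, 58.3% and 25.0%). In the test between the agents, camptothecin was below hydroxyurea for 10 and above it for 2 (36.5% and 36.2% of all features). At SPBC1348, 6 of 7 rose with hydroxyurea and with phleomycin, 4 with camptothecin and 1, ftm6, with methyl methanesulfonate. There methyl methanesulfonate was below phleomycin for all 7 (36.2% of all features). Of these 7 genes, 6 had a near-identical copy on another cosmid, so their counts cannot be credited to SPBC1348 alone. At SPBPB10D8, 0 of 4 rose with phleomycin and 3 fell (40.7% of all features), and 0 rose at an unadjusted p under 0.05 in edgeR or in DESeq2.

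In direct tests between agents, methyl methanesulfonate was below each of the others for more end genes than it was above. It was below phleomycin for 36 end genes and above it for 11, against 36.2% and 35.8% of all features, with a median difference of -0.91. Hydroxyurea was above methyl methanesulfonate for 39 and below it for 10 (39.4% and 34.2% of all features), and camptothecin was above it for 31 and below it for 16 (38.7% and 38.2%). Camptothecin was above phleomycin for 17 and below it for 28 (40.7% and 39.4%). Hydroxyurea was above phleomycin for 17 and below it for 27 (37.8% and 33.3%), and the 17 became 10 without hydroxyurea replicate 2. Camptothecin and hydroxyurea split 22 to 24 (36.2% and 36.5%), near the background, with 26 to 18 under quantile normalization. Scaled to library totals, rises made up 27.3% of all calls between camptothecin and hydroxyurea in place of 49.8%, 63.4% in place of 53.6% between hydroxyurea and methyl methanesulfonate, and 65.0% in place of 53.2% between hydroxyurea and phleomycin, and the end genes then split 19 to 24, 40 to 9 and 20 to 25. By 2-fold or more, methyl methanesulfonate was below phleomycin for 27 end genes and above it for 2 (4.71% and 2.15% of all features). Hydroxyurea was above methyl methanesulfonate by that much for 22 and below for 3 (4.27% and 3.66%), and camptothecin for 18 and 8 (4.85% and 8.60%). Camptothecin was below phleomycin for 20 and above for 7 (11.1% and 3.94%), hydroxyurea below phleomycin for 15 and above for 1 (4.17% and 1.99%), and camptothecin above hydroxyurea for 9 and below for 14 (2.28% and 7.34%). The 10 comparisons share libraries, so their counts are not independent of each other.

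The genes just inside the end blocks, 20 protein-coding genes at each of the 4 ends, were looked at beside them, and 74 of these 80 were tested. Of them, 33 rose and 30 fell with camptothecin, 45 and 19 with hydroxyurea, 39 and 25 with methyl methanesulfonate, and 41 and 22 with phleomycin. In the same order, 35.2%, 40.3%, 39.5% and 42.2% of all features rose and 35.9%, 38.8%, 40.9% and 40.7% fell. The median differences of these flanking genes were 0.08, 0.29, 0.18 and 0.31, below those of the end genes except with methyl methanesulfonate. Rises of 2-fold or more took 14.9%, 32.4%, 35.1% and 35.1% of them, in the usual order of agents, against 6.38%, 12.4%, 13.5% and 16.5% of all features, and for end genes the shares were 30.9%, 43.6%, 32.7% and 50.9%. Whether the blocks differ from their flanks was not tested.

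The list of 24 genes of factors that bear on the protection or silencing of chromosome ends, for or against it, was matched in full. Of the 21 tested, 7 rose and 10 fell with camptothecin, 10 and 7 with hydroxyurea, 8 and 7 with methyl methanesulfonate, and 10 and 8 with phleomycin. As shares, 33.3%, 47.6%, 38.1% and 47.6% rose and 47.6%, 33.3%, 33.3% and 38.1% fell, near the shares of all features given above, so the counts say nothing particular about the list. pot1, whose protein binds the single-stranded telomere end, rose by 0.58 ± 0.047, 1.47 ± 0.044, 0.73 ± 0.046 and 1.81 ± 0.044. chp2, a chromodomain protein gene of heterochromatin, rose by 0.50, 0.76, 0.75 and 1.22. swi6, whose protein reads methylated histone H3, fell by 0.20, 0.29, 0.30 and 0.35, and taz1, whose protein binds the double-stranded telomere repeat, fell by 0.19, 0.29, 0.47 and 0.30. bqt3, whose protein helps hold telomeres to the nuclear envelope, fell by 0.28, 0.59, 0.26 and 1.04. sir2, a histone deacetylase gene, rose by 0.27 with hydroxyurea and fell by 0.28, 0.70 and 0.24 with camptothecin, methyl methanesulfonate and phleomycin. These values stand beside the end genes' changes, and their part in them was not tested.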

How the data were processed

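Total RNA had been sequenced in 10 libraries, 2 in each of 5 groups. The authors deposited 1 table of raw read counts per gene. Per the submitters' processing notes, HISAT2 and StringTie were used; their versions and roles are not stated, and the build, annotation, counting tool and strandedness are likewise not given in the sources used here. Of the columns, 0 belonged to other samples. Depth ran from 37301356 to 48598533 counts per library.

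Genes were tested with edgeR 4.0.16 in R 4.3.3, with the default filterByExpr, TMM scaling, 1 quasi-likelihood model of the 5 groups with 5 residual degrees of freedom, Benjamini-Hochberg adjustment over 5734 features and a threshold of 0.05. The code was tested on simulated data. IDs were looked up in RefSeq assembly ASM294v3, where 110 of 6661 found no match, for names, products, neighbours and overlaps. Copies were found there with blastn 2.17.0+. No coordinate or sequence is printed, because the build behind the counts is not named, and for that reason promoters were not analysed here.

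End genes and lists were chosen with earlier results of these data known. Genes described in full were, for each agent over untreated cells, the 5 largest rises and the 5 largest falls past the threshold with libraries that did not overlap and a higher mean of at least 1 CPM. Added to these were the largest difference each way for each pair of agents, tlh1, tlh2, gal1, gal7 and gal10, and the gene with the highest CPM in each of the 8 cosmids. Neighbours, copies and other genes named beside them were chosen after their values were seen. Alternatives were library totals, quantile normalization with limma 3.58.1, DESeq2 1.42.0, no filter, summed copies, a replicate block and leaving out each library in turn, where a group left with 1 library was assumed to vary like the others. Intervals of 95% and the floor of 3 counts cover counting error only.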

Additional observations from a re-analysis of the deposited data

How the results depend on the processing

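Of 1320 values of named genes under the alternatives, 1257 kept their direction and their side of the threshold, 27 lost the call, 18 gained it and 18 changed direction, and the cause was not tested. Quantile normalization gave 13 end genes that fell with hydroxyurea and 17 with phleomycin. Leaving out 1 library at a time gave between 10 and 15 end genes higher with hydroxyurea than with phleomycin. Counts limited to genes without copies, an alternative chosen after seeing the data, were 11, 21, 14 and 16 rises with camptothecin, hydroxyurea, methyl methanesulfonate and phleomycin and 12 and 7 falls with the last 2. Limited to the 47 genes with 10 or more counts in both untreated libraries, also chosen after seeing the data, they were 20, 32, 19 and 28 rises and 12, 7, 20 and 11 falls.

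tgd1 was not among the genes behind these 1320 values, and its call with hydroxyurea turned to -0.15 under quantile normalization. Among the 1320 values, all changes of direction were in differences that had not passed the threshold. Under quantile normalization these were SPAC212.03 with hydroxyurea (-0.02), plb4 with camptothecin (-0.09), dak2 with phleomycin (-0.16), tlh2 with camptothecin (-0.32) and SPBPB10D8.07c with hydroxyurea (-0.17), and with library totals SPAC212.08c with hydroxyurea (0.13). Leaving out 1 library gave ranges from -1.51 to 1.02 for SPAC212.03 and from -0.64 to 0.64 for ayr2 with methyl methanesulfonate, from -0.36 to 0.37 for SPAC212.08c and from -0.05 to 0.22 for SPBPB10D8.07c with hydroxyurea, from -0.30 to 0.87 for tlh2 with camptothecin, and from -0.04 to 0.11 for both dak2 and gal1 with phleomycin.

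The labels do not say whether replicate numbers pair the libraries. Correlations between groups of the differences between replicates ran from -0.0527 to 0.0370, which shows no shared replicate effect but does not settle the pairing. With a replicate block, 25, 37, 21 and 33 end genes rose and 12, 6, 21 and 11 fell with camptothecin, hydroxyurea, methyl methanesulfonate and phleomycin, and the calls of SPBPB10D8.02c with hydroxyurea (adjusted p = 0.0604) and gal1 with methyl methanesulfonate (0.12, adjusted p = 0.0664) ended, by edgeR. Depth limits the genes with a few counts in untreated cells, such as ftm6, SPAC212.03 and SPBPB2B2.07c.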

Other observations

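The end blocks also hold 23 non-coding RNA genes of the table, of which 16 were tested. Of these, 10 rose and 2 fell with camptothecin, 10 and 1 with hydroxyurea, 10 and 4 with methyl methanesulfonate, and 13 and 1 with phleomycin, by edgeR's quasi-likelihood test, where 35.2%, 40.3%, 39.5% and 42.2% of all features rose and 35.9%, 38.8%, 40.9% and 40.7% fell. Protein-coding features, 4704 of the 5734, rose in 34.8%, 34.7%, 36.2% and 37.8% of cases, less often than all features. The remaining features therefore rose more often than the shares given, and a background of non-coding features alone was not computed. In all, 7 of the 16 rose with every agent, against 16.4% of all features. One is prl107 (SPNCRNA.1704), which lies across pdc102, the end gene with no count and no copy, on the opposite strand. As the strand setting is not given, reads of pdc102 and prl107 cannot be told apart, and the values below may hold both. It had 0.155 and 0.0466 CPM untreated, 2.69 and 2.59 in camptothecin, 2.20 and 2.84 in hydroxyurea, 0.528 and 0.550 in methyl methanesulfonate and 4.88 and 4.07 in phleomycin, and rose by 4.71 ± 0.45, 4.64 ± 0.45, 2.42 ± 0.60 and 5.46 ± 0.42. SPNCRNA.448 had 5.77 and 4.45 CPM untreated and was highest with phleomycin, at 30.6 and 32.4 CPM, a rise of 2.63 ± 0.11.

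Others took a course of their own. SPNCRNA.1305, the most abundant of those named here, had 157 and 152 CPM untreated, 239 and 238 in camptothecin, 155 and 155 in hydroxyurea, 57.0 and 57.0 in methyl methanesulfonate and 107 and 106 in phleomycin. It rose by 0.62 ± 0.031 with camptothecin and fell by 1.44 ± 0.035 and 0.54 ± 0.032 with methyl methanesulfonate and phleomycin. SPNCRNA.1696 fell by 0.64 ± 0.070 with camptothecin and was highest with methyl methanesulfonate, at 127 and 131 CPM against 24.2 and 21.8 untreated, a rise of 2.49 ± 0.057. These RNAs were chosen after their values were seen.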
